A study of Homo sapiens with 14 samples.

Results

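The genes described here encode AP-1 transcription factors and close partners. They are the JUN family (JUN, JUNB and JUND), the FOS family (FOS, FOSB, FOSL1 and FOSL2) and 3 related basic leucine zipper genes (ATF3, MAFF and BATF3). They were taken by symbol from the table of read counts per gene, which gave 10 genes of the 58780 listed. The cells were A549, an established line from a human lung adenocarcinoma, and the assay was precision run-on sequencing (PRO-seq), which captures RNA that engaged polymerases extend in permeabilized cells. Each of 7 groups had 2 libraries: untreated cells, GSK591 for 15 min, MS023 for 15 min, GSK591 with dexamethasone (Dex) for 15 min, MS023 with Dex for 15 min, GSK591 for 3 h and MS023 for 3 h. GSK591 inhibits PRMT5, an enzyme that dimethylates arginine symmetrically, MS023 inhibits the type I arginine methyltransferases, and Dex is a synthetic glucocorticoid. Inhibitors were used at 1 µM and Dex at 100 nM, both in 0.01% DMSO. The labels name no vehicle for the untreated cells. The untreated cells carry a 15 min label, so the 3 h groups have no untreated libraries of their own time here, and Dex without an inhibitor was not analysed here.

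AP-1 is not a single protein but a family of dimers. JUN proteins can pair with each other or with FOS proteins, whereas FOS proteins need a JUN partner to bind DNA, and ATF, MAF and BATF proteins join in through the same leucine zipper. Many of the genes are immediate early genes, transcribed within minutes of a growth or stress signal through SRF, ELK and CREB factors, and the ligand-bound glucocorticoid receptor is known to restrain AP-1 activity at some genes of airway epithelial cells.

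Total counts ran from 5768312 to 9606938 per library, of which 39.8% to 58.0% fell on mitochondrial genes. The AP-1 genes together held 3186 to 5093 counts per library. Levels are given as CPM, counts scaled to each library's size after a trimmed-mean (TMM) correction, so a change is measured against most other genes and is not an absolute output. The epithelial keratins KRT8 (259 to 353 CPM) and KRT18 (119 to 178 CPM) and the A549-typical AKR1C1 (202 to 395 CPM) were high in every library. The lung lineage factor NKX2-1 had 0 to 3 counts and EPCAM 1.30 to 4.09 CPM. The leukocyte gene PTPRC and the red cell gene HBB had at most 1 count, while the fibroblast gene COL1A1 had 40 to 69 counts in every library. Nothing in the labels says that the replicates were separate cultures, so the p-values measure only the spread between these libraries.

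All 10 genes passed the filter on low counts, which left 21910 genes for testing. Per kilobase of merged exon in untreated cells, JUNB stood first at 58.9 ± 5.2 CPM per kb (SD, n = 2). JUND followed at 30.7 ± 0.18, FOSL1 at 25.3 ± 3.9, JUN at 24.0 ± 1.5, FOSL2 at 17.8 ± 0.021, FOS at 11.4 ± 1.7 and MAFF at 4.73 ± 0.24 CPM per kb. BATF3 (1.26 ± 0.069), ATF3 (1.02 ± 0.47) and FOSB (0.896 ± 0.38 CPM per kb) formed the low end. The libraries of FOSL1 and JUN overlapped, as did those of BATF3 with ATF3 and of ATF3 with FOSB, and the other neighbours in this order were apart. Untreated A549 cells therefore carried nascent reads over all 3 JUN genes and over FOS, FOSL1 and FOSL2, with FOSB close to the bottom. The counted feature is not given in the sources used here, and the genes differ in introns. The order therefore holds only per kilobase of exon: before division by length, FOSL2 (127 CPM) stood above JUNB (107 CPM). JUNB's exons also overlap those of HOOK2 on the opposite strand.

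Promoter sequence was available from RefSeq (GRCh38.p14) for 8 of the 10 genes, in windows of 250 bases before to 50 after the annotated start. The 4 shown here belong to the genes whose changes are described most fully, and each runs from 250 bases before the start to 15 bases from it on, 5′ to 3′ on the gene's strand. Capitals mark TGANTCA (the TPA response element that FOS and JUN dimers bind), TGACNTCA (the cyclic AMP element and its JUN promoter form) and TGACG (the core shared with ATF and CREB sites), on either strand.
JUN: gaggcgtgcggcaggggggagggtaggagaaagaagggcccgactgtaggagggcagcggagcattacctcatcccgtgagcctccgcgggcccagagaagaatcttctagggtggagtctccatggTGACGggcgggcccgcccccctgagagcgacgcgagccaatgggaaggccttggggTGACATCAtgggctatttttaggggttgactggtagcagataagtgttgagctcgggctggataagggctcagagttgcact
JUND: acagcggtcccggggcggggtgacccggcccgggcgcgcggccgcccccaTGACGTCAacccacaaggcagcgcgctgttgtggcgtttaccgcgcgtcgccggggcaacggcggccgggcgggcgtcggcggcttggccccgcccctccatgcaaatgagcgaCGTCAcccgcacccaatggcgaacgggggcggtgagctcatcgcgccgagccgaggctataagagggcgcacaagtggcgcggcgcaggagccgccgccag
FOSL2: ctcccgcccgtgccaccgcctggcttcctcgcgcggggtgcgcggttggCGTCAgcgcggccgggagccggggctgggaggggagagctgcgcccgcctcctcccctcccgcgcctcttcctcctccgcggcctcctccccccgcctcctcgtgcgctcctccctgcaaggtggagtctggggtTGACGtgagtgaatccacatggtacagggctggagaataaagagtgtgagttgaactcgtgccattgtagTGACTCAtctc
FOS: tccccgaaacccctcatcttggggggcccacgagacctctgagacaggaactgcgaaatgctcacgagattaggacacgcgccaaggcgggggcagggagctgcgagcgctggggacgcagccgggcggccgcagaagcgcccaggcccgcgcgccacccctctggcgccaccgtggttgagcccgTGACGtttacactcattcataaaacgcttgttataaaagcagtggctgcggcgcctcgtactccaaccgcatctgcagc
These windows lie at chr1:58784033-58784297 (minus strand) for JUN, chr19:18281608-18281872 (minus strand) for JUND, chr2:28392608-28392872 (plus strand) for FOSL2 and chr14:75278578-75278842 (plus strand) for FOS. In GENCODE 29 the JUN window lies wholly inside the gene's single exon, since that annotation starts JUN further upstream, and the JUND window touches its exon over only the last 15 bases.

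The JUN promoter held TGACATCA with its first base 67 bases before the start, the JUND promoter held TGACGTCA at 200 bases before it, and FOSL2 held TGACTCA at base 5 from the start. Of these 3 motifs FOS held only TGACG, at 64 bases before the start. TGACNTCA was present in 4 of the 8 AP-1 genes with a window (JUN, JUND, ATF3 and MAFF), and in 7.72% of all 35116 windows of that length. TGANTCA was found in 1 of the 8 genes, FOSL2, and in 7.71% of all windows. TGACG, which overlaps TGACGTCA, was found in 7 of the 8 genes, against 24.6% of all windows. The shares of all are per window, and ATF3 and MAFF have further windows. Per window, the AP-1 genes held TGACNTCA in 4 of 10, TGANTCA in 1 of 10 and TGACG in 7 of 10. The glucocorticoid receptor motif searched, the half-sites GNACA and TGTNC with 3 bases between them, was in none of the windows of the 8 genes and in 0.39% of all. The serum response motif CArG was in none of them either and in 1.29% of all. A match is only a stretch of letters in this window.

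Read across the 13 comparisons, JUN fell and JUND rose at 3 h of either inhibitor, and FOSL2 rose with Dex beside either inhibitor. Calls are edgeR quasi-likelihood tests at an adjusted p under 0.05. Neither inhibitor alone moved any AP-1 gene past that threshold at 15 min: 0 of 10 were called for GSK591, where 0.306% of all tested genes were, and 0 of 10 for MS023, against 0.183%. In each of these comparisons 1 of the 10 had an unadjusted p under 0.05, JUND for GSK591 and JUN for MS023, and DESeq2 also called 0. At 3 h, 4 of 10 were called for GSK591 against untreated (JUND and BATF3 higher, FOSL1 and JUN lower), against 11.0% of all genes, and 3 of 10 for MS023 (JUND higher, FOSL1 and JUN lower), against 7.63%. GSK591 with Dex differed from untreated at 2 of 10 (FOSL2 higher, JUN lower; 5.85% of all genes). MS023 with Dex differed at 5 of 10 (FOS, FOSL2, JUND and MAFF higher, JUN lower; 7.66%). These 6 comparisons share the same pair of untreated libraries.

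The comparisons that do not use the untreated libraries gave the following calls. Adding Dex to GSK591 changed 2 of 10 genes (FOSL2 higher, JUN lower), against 3.70% of all genes. Adding Dex to MS023 changed 4 of 10 (FOSL2, JUND, MAFF and BATF3, each higher), against 8.97%. The effect of Dex differed between the inhibitors at 1 of 10, JUND, against 1.15%. Going from 15 min to 3 h of GSK591 changed 3 of 10 (BATF3 higher, FOSL1 and JUN lower; 6.41%), and of MS023 5 of 10 (JUND and BATF3 higher, FOS, FOSL1 and JUN lower; 12.0%). GSK591 and MS023 at 15 min differed at 1 of 10, JUND, against 1.09%. At 3 h they differed at 0 of 10 by edgeR, with 0.00% of all genes called, 0 of the 10 at an unadjusted p under 0.05 and 0 by DESeq2. JUN and JUND were each called in 7 of the 13 comparisons, FOSL1, FOSL2 and BATF3 in 4 each, FOS and MAFF in 2 each, and JUNB, ATF3 and FOSB in 0.

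**Figure D1:**
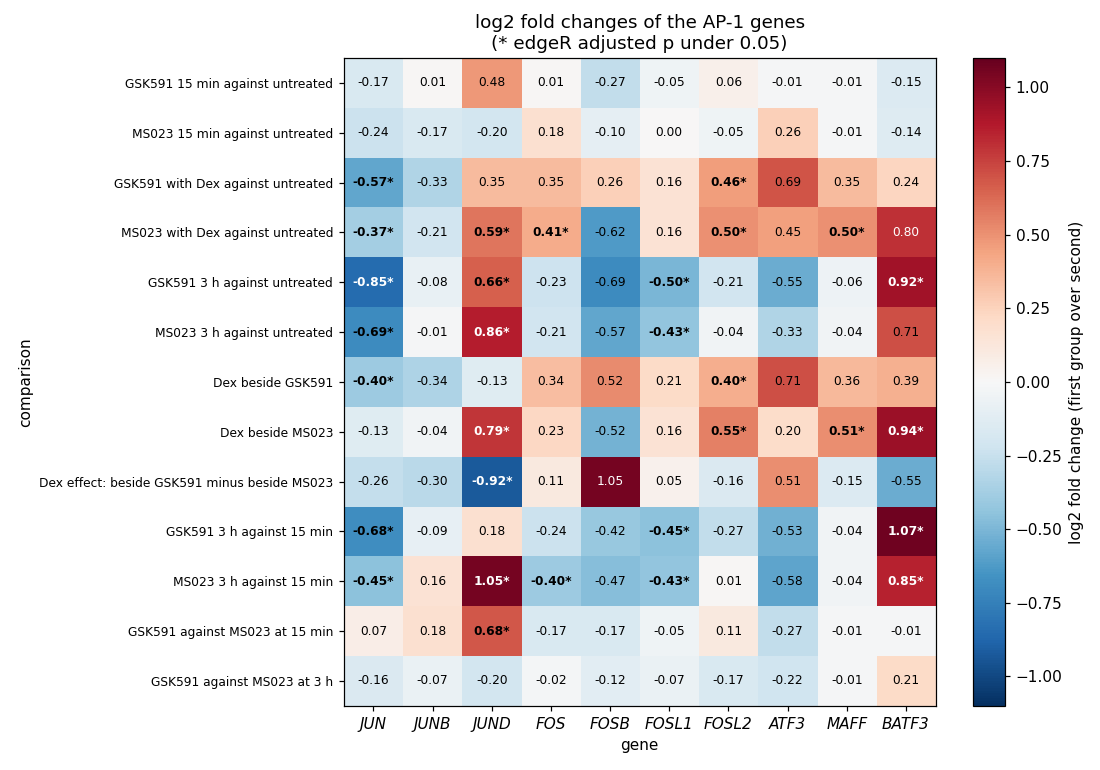
Log2 fold changes of the 10 AP-1 genes (columns) in the 13 comparisons (rows), first-named group over second, with an asterisk where the edgeR adjusted p is under 0.05. The JUN column is negative in every comparison with untreated cells, from -0.17 to -0.85, the JUND column reaches 1.05 for MS023 at 3 h against 15 min, and the rows for either inhibitor alone at 15 min hold no asterisk.

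JUN encodes the founding member of the family and is a single-exon gene at chr1:58780788-58784327 (minus strand, 3540 bp of exon, GENCODE 29). Its 2 untreated libraries stood at 81.4 and 88.8 CPM, the highest levels of JUN in the series. GSK591 for 3 h gave 47.4 and 46.9 CPM, and MS023 for 3 h gave 52.6 and 52.6 CPM. All 4 libraries of the 3 h groups were below all others. JUN fell by 0.85 ± 0.10 (log2, SE) with GSK591, to 0.554 of the untreated level (edgeR adjusted p = 5e-08), and by 0.69 ± 0.10 with MS023, to 0.618 (adjusted p = 3.1e-06). Set against 15 min of the same inhibitor in place of untreated cells, it fell by 0.68 with GSK591 (adjusted p = 2.1e-05) and by 0.45 with MS023 (adjusted p = 0.0017 by edgeR), the latter being -0.34 (adjusted p = 0.11) without MS023 15 min replicate 1.

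JUN was also lower where Dex was present. Libraries of GSK591 with Dex read 55.3 and 59.4 CPM against 76.4 and 74.6 CPM for GSK591 alone, and the groups did not overlap. JUN fell by 0.40 ± 0.10 on the log2 scale when Dex joined GSK591 (edgeR adjusted p = 0.016). MS023 with Dex read 69.1 and 62.3 CPM against 76.8 and 66.8 CPM for MS023 alone, which overlapped, and the log2 difference was -0.13 (95% interval -0.33 to 0.07, adjusted p = 0.50). The difference between the Dex effects beside each inhibitor was -0.26 (interval -0.55 to 0.02, adjusted p = 0.52). Against untreated cells JUN fell by 0.57 with GSK591 and Dex (adjusted p = 0.0002) and by 0.37 with MS023 and Dex (adjusted p = 0.01). The last call was lost without untreated replicate 2 (-0.31, adjusted p = 0.17) or MS023 with Dex replicate 2 (-0.30, adjusted p = 0.19), and the JUN call for Dex beside GSK591 was lost when any 1 of its 4 libraries was left out, with values from -0.44 to -0.35 and adjusted p from 0.062 to 0.14.

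JUND encodes the JUN protein best known for its steady presence in resting cells. It is also a single-exon gene, at chr19:18279760-18281622 (minus strand, 1863 bp of exon). Untreated libraries read 57.0 and 57.5 CPM. At 3 h GSK591 gave 86.3 and 94.6 CPM and MS023 gave 106 and 101 CPM. All 4 were above both untreated libraries, and the MS023 pair stood above every other library in the series. JUND rose by 0.66 ± 0.12 with GSK591, 1.58-fold (edgeR adjusted p = 7.4e-05), and by 0.86 ± 0.12 with MS023, 1.81-fold (adjusted p = 9e-07).

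At 15 min JUND differed between the inhibitors. GSK591 libraries read 86.5 and 73.6 CPM, MS023 libraries 41.2 and 59.9 CPM, and the pairs did not overlap. GSK591 stood 0.68 ± 0.12 above MS023 on the log2 scale (edgeR adjusted p = 0.0011), while against untreated cells the values were 0.48 (adjusted p = 0.052) for GSK591 and -0.20 (adjusted p = 0.73) for MS023. Thus JUND went up by 1.05 between 15 min and 3 h of MS023 (adjusted p = 1.9e-08), and by 0.18, not past the threshold, between the same times of GSK591 (adjusted p = 0.41). The 15 min difference rests on single libraries and on the scaling: it was 0.56 (adjusted p = 0.18) with library size alone, 0.42 (adjusted p = 0.54) without MS023 replicate 1 and 0.55 (adjusted p = 0.13) without GSK591 replicate 1. Without GSK591 replicate 2, the value of GSK591 against untreated cells was 0.60 (adjusted p = 0.032).

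The response of JUND to Dex also differed between the inhibitors. MS023 with Dex read 83.1 and 89.2 CPM of JUND, above both MS023 libraries, and JUND rose by 0.79 ± 0.12 when Dex joined MS023 (edgeR adjusted p = 8.9e-06). GSK591 with Dex read 78.4 and 67.6 CPM, which overlapped the GSK591 libraries, and the value was -0.13 (95% interval -0.37 to 0.11, adjusted p = 0.63). The difference between these Dex effects was -0.92 ± 0.17 (adjusted p = 0.0018). It dropped to -0.66 (adjusted p = 0.16) without MS023 replicate 1 and to -0.79 (adjusted p = 0.059) without GSK591 replicate 1, both at 15 min. Against untreated cells JUND rose by 0.59 with MS023 and Dex (adjusted p = 0.00054), and the value with GSK591 and Dex was 0.35 (adjusted p = 0.074). The comparison of the inhibitors at 15 min, the Dex effect beside each inhibitor and the difference of the Dex effects share 15 min libraries, so they are not separate observations.

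JUND is among the richest of the tested genes in G and C: its longest transcript is 69.7% GC, a value at percentile 99.1 of them. Libraries differed slightly in a trend of level with GC content, which at JUND's GC averaged 0.13 (log2) for GSK591 at 3 h, 0.10 for MS023 at 3 h and -0.06 for untreated cells. With that trend taken out, an analysis chosen after seeing the data, JUND still rose at 3 h by 0.47 with GSK591 (adjusted p = 0.0017) and by 0.70 with MS023. The difference of the Dex effects was then -0.65 (adjusted p = 0.021).

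JUNB, at chr19:12791496-12793315 (plus strand), had the highest level per kilobase of the family in untreated cells. It ran from 78.7 to 118 CPM over the 14 libraries with a median of 99.3 CPM, and its group means spanned 1.27-fold. Its largest difference was between GSK591 with Dex (91.8 and 78.7 CPM) and GSK591 alone (112 and 105 CPM). These pairs did not overlap, and the log2 difference was -0.34 ± 0.11 (edgeR adjusted p = 0.063). JUNB is the only one of the 10 whose exons overlap another gene's, HOOK2 on the opposite strand, and the strand setting of the counting is not given in the sources used here, so part of its counts may belong to HOOK2.

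Within the JUN family the balance moved from JUN to JUND. The ratio of JUN to JUND per kilobase, which no library scaling can change, was 0.752 and 0.813 in the untreated libraries. It was 0.289 and 0.261 with GSK591 for 3 h and 0.261 and 0.274 with MS023 for 3 h. Ratios with Dex were 0.371 and 0.462 beside GSK591, and 0.437 and 0.368 beside MS023. GSK591 for 15 min gave 0.465 and 0.534, and MS023 for 15 min 0.981 and 0.587, the pair that was furthest apart. Every treated library other than MS023 15 min replicate 1 was below both untreated libraries. JUN made up 21.2% ± 2.0 (SD, n = 2) of the family's signal per kilobase in untreated cells, 11.3% ± 0.28 with GSK591 and 11.6% ± 0.92 with MS023 at 3 h. JUND made up 27.0% ± 1.1, 41.2% ± 2.1 and 43.2% ± 2.1, and JUNB 51.8% ± 3.0, 47.4% ± 1.8 and 45.2% ± 3.1, in the same order.

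**Figure D2:**
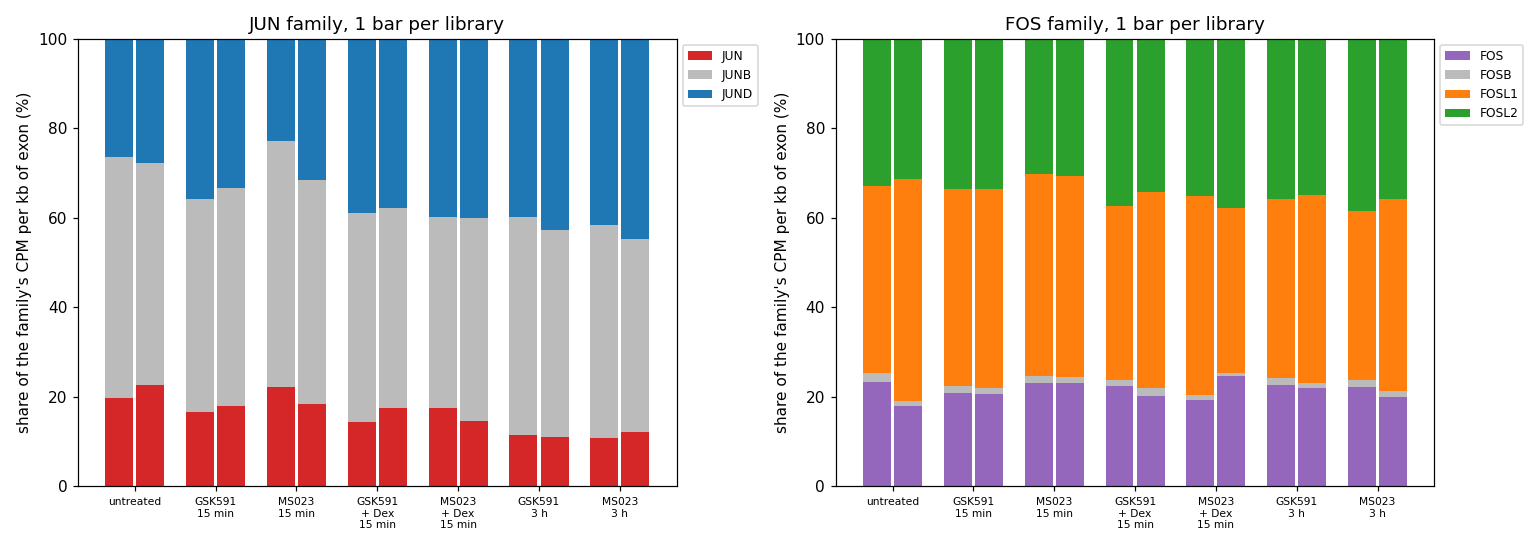
Share of each gene in its family's CPM per kilobase of exon (%), with 1 bar per library; left the JUN family, right the FOS family. JUN shrinks from 19.8% and 22.6% in the untreated libraries to between 10.9% and 12.2% in the 3 h libraries, while the FOS family bars show FOSL1 and FOSL2 as the main shares throughout.

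FOSL2 encodes FRA2, a FOS protein without the strong activation domain of FOS, and lies at chr2:28392448-28417312 (plus strand, 7157 bp of exon in 7 merged exons). Untreated libraries both read 127 CPM. GSK591 with Dex gave 180 and 170 CPM and MS023 with Dex gave 180 and 180 CPM, while the 8 libraries of either inhibitor without Dex read 109 to 136 CPM. The Dex libraries were thus the 4 highest. FOSL2 rose by 0.40 ± 0.09 when Dex joined GSK591, 1.32-fold (edgeR adjusted p = 0.0064), and by 0.55 ± 0.09 when it joined MS023, 1.47-fold (adjusted p = 3.2e-05). Against untreated cells FOSL2 rose by 0.46 with GSK591 and Dex (adjusted p = 0.00096) and by 0.50 with MS023 and Dex (adjusted p = 0.00015). The difference between the Dex effects was -0.16 (interval -0.42 to 0.10, adjusted p = 0.74). The call beside GSK591 was lost without GSK591 15 min replicate 1 (0.36, adjusted p = 0.13). Scaled by library size alone, the values were 0.20 (adjusted p = 0.41) beside GSK591 and 0.37 (adjusted p = 0.073) beside MS023, and 0.33 (adjusted p = 0.16) for GSK591 with Dex against untreated. That scaling moved the median of all genes by -0.21, -0.19 and -0.12 in these comparisons, in the same order.

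FOS, the classic immediate early gene, lies at chr14:75278774-75282230 (plus strand). Its untreated libraries read 40.7 and 33.1 CPM. MS023 with Dex read 44.8 and 53.2 CPM, and GSK591 with Dex 48.8 and 45.3 CPM, so that all 4 Dex libraries were above both untreated ones. FOS rose by 0.41 ± 0.11 with MS023 and Dex against untreated cells (edgeR adjusted p = 0.014), and the value with GSK591 and Dex was 0.35 (adjusted p = 0.057). Set against the same inhibitor without Dex, the values were 0.23 (adjusted p = 0.23) beside MS023 and 0.34 (adjusted p = 0.089) beside GSK591. At 3 h FOS read 31.4 and 31.4 CPM with GSK591 and 32.6 and 30.9 CPM with MS023, and it fell by 0.40 ± 0.12 between 15 min and 3 h of MS023 (adjusted p = 0.02). The call with MS023 and Dex was lost without untreated replicate 2 (0.27, adjusted p = 0.33) or MS023 with Dex replicate 2 (0.28, adjusted p = 0.32), and the fall over time when any 1 of its 4 libraries was left out (-0.44 to -0.34, adjusted p from 0.068 to 0.16). DESeq2 called neither (adjusted p = 0.079 and 0.099).

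FOSL1 encodes FRA1, a FOS protein known for its high levels in many carcinomas, and lies at chr11:65892049-65900573 (minus strand). Untreated libraries read 42.6 and 52.9 CPM. GSK591 for 3 h gave 32.4 and 35.1 CPM and MS023 for 3 h gave 32.3 and 38.8 CPM. These were the 4 lowest libraries. FOSL1 fell by 0.50 ± 0.12 with GSK591 (edgeR adjusted p = 0.0046) and by 0.43 ± 0.12 with MS023 (adjusted p = 0.021) against untreated cells. It fell by 0.45 and 0.43 against 15 min of GSK591 and MS023 (adjusted p = 0.02 and 0.017). Without untreated replicate 2 the values were -0.33 (adjusted p = 0.25) and -0.26 (adjusted p = 0.48), and without the first 3 h library of each inhibitor they were -0.44 (adjusted p = 0.091) and -0.30 (adjusted p = 0.35). Over time the GSK591 call was lost without any 1 of its 4 libraries (adjusted p from 0.064 to 0.20), and the MS023 call without either 15 min library or MS023 3 h replicate 1 (adjusted p from 0.087 to 0.27). Of these 4 calls DESeq2 made only that for GSK591 against untreated cells (adjusted p = 0.097, 0.068 and 0.082 for the others), and library size alone gave -0.37 (adjusted p = 0.13) there.

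FOSB, at chr19:45467995-45475179 (plus strand), had 21 to 60 counts per library, which limits what could be detected. Untreated libraries read 6.45 and 3.50 CPM, and the other 12 read 2.40 to 6.73 CPM. Its Dex values were of opposite sign, 0.52 beside GSK591 and -0.52 beside MS023, and their difference of 1.05 had a 95% interval of 0.19 to 1.91 and an edgeR adjusted p of 0.31. In shares of the FOS family per kilobase, FOSL1 made up 45.6% ± 5.4 (SD, n = 2) in untreated cells and 41.1% ± 1.4 and 40.5% ± 3.7 at 3 h of GSK591 and MS023, and FOSL2 32.1% ± 0.99, 35.3% ± 0.57 and 37.2% ± 1.9.

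**Figure D3:**
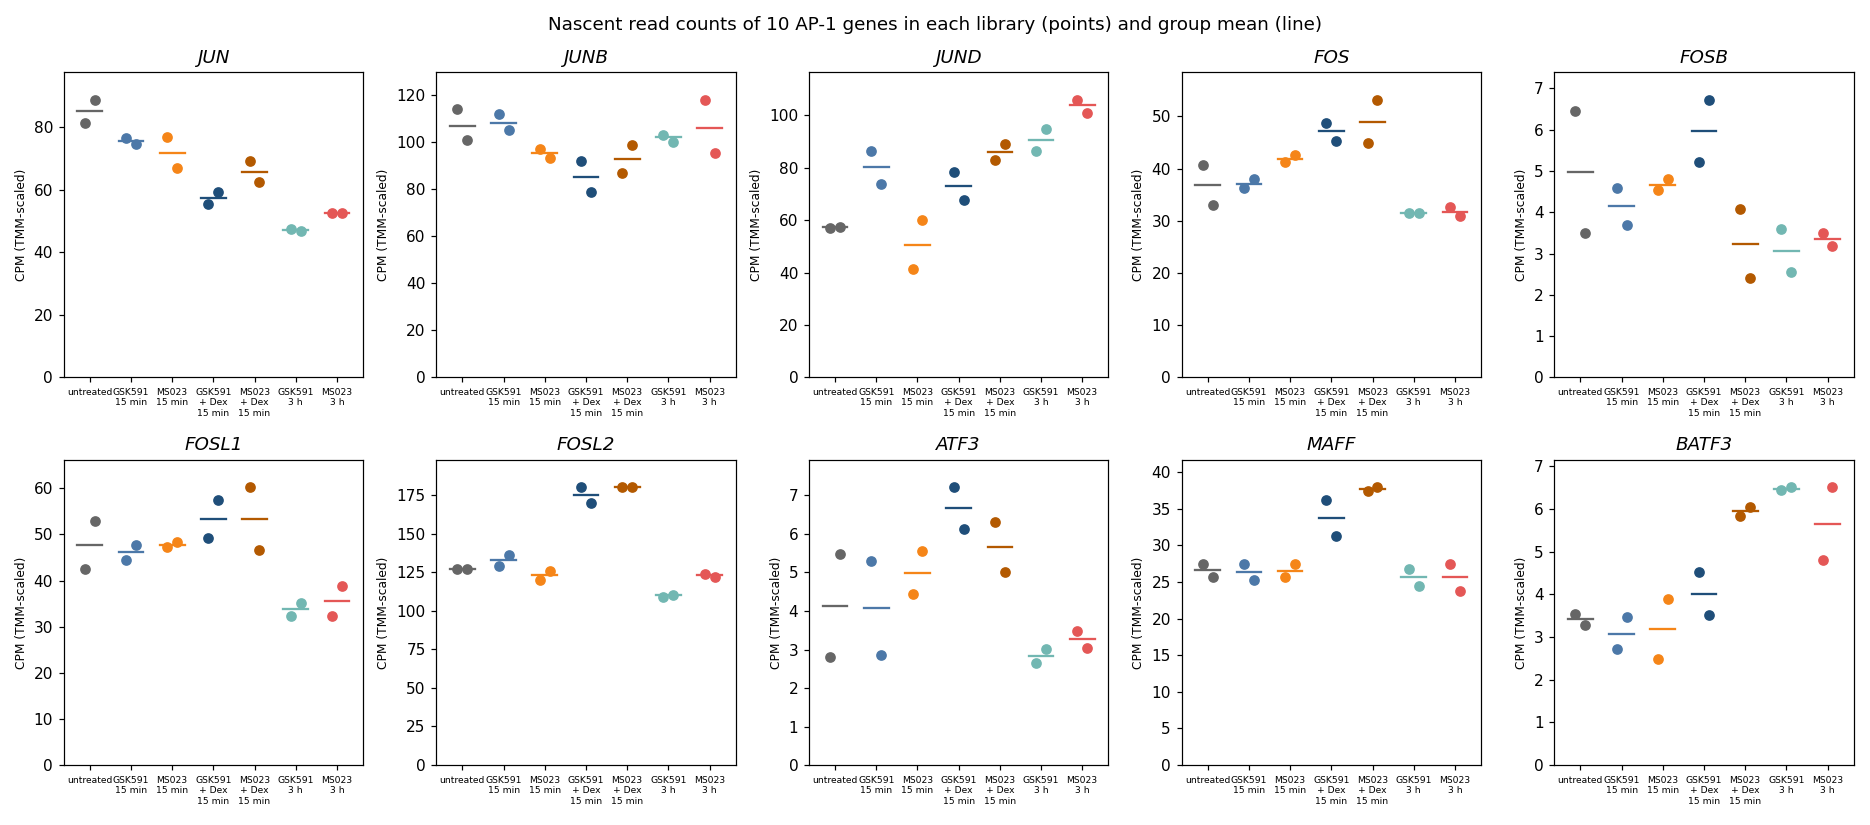
CPM of each AP-1 gene (1 panel per gene, y axis from 0) in the 7 groups, with a point per library and a line at the group mean of 2. FOSL2 and MAFF are highest in the 4 Dex libraries, JUN is lowest in the 4 libraries of 3 h, and JUND is highest in the MS023 libraries of 3 h at 106 and 101 CPM.

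MAFF encodes a small MAF protein, which lacks an activation domain and pairs with FOS and with other leucine zipper factors, and lies at chr22:38200767-38216511 (plus strand). Untreated libraries read 27.5 and 25.6 CPM. MS023 with Dex read 37.4 and 37.9 CPM and GSK591 with Dex 36.2 and 31.2 CPM. These 4 were the highest, and the other 8 treated libraries lay between 23.8 and 27.5 CPM. MAFF rose by 0.51 ± 0.12 when Dex joined MS023, 1.42-fold (edgeR adjusted p = 0.0032), and the value beside GSK591 was 0.36 (interval 0.11 to 0.60, adjusted p = 0.098). The difference between these values was -0.15 (interval -0.50 to 0.19, adjusted p = 0.84). The call beside MS023 was lost without MS023 15 min replicate 1 (0.45, adjusted p = 0.11) or with library size alone (0.33, adjusted p = 0.19), and the call for MS023 with Dex against untreated (0.50, adjusted p = 0.0034) without untreated replicate 2 (0.45, adjusted p = 0.081).

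BATF3, at chr1:212686418-212699985 (minus strand), encodes a factor best known from dendritic cells, and had only 23 to 61 counts per library. Untreated libraries read 3.55 and 3.28 CPM. GSK591 for 3 h gave 6.44 and 6.51 CPM, MS023 for 3 h 4.80 and 6.51 CPM, and MS023 with Dex 5.84 and 6.05 CPM. All 6 were above all other libraries. BATF3 rose by 0.92 ± 0.26 with GSK591 for 3 h, 1.89-fold (edgeR adjusted p = 0.013), and by 0.94 ± 0.27 when Dex joined MS023, 1.91-fold (adjusted p = 0.023). The value for MS023 for 3 h was 0.71 (adjusted p = 0.10), and from 15 min to 3 h BATF3 rose by 1.07 with GSK591 (adjusted p = 0.0094) and by 0.85 with MS023 (adjusted p = 0.04). At this depth these calls were fragile. That for GSK591 at 3 h was lost without any 1 of its 4 libraries (0.87 to 0.98, adjusted p from 0.07 to 0.13), that beside MS023 without MS023 replicate 1 (0.61, adjusted p = 0.44) or either library with Dex (0.92 and 0.97, adjusted p = 0.13 and 0.084). Over time the GSK591 value was 0.90 (adjusted p = 0.13) without 15 min replicate 1, 1.08 (adjusted p = 0.06) without 3 h replicate 1 and 1.06 (adjusted p = 0.07) without 3 h replicate 2, and the MS023 value was 0.52 (adjusted p = 0.45) without 15 min replicate 1 and 0.65 (adjusted p = 0.28) without 3 h replicate 2. DESeq2 called BATF3 neither for GSK591 at 3 h (adjusted p = 0.093), nor for Dex beside MS023 (0.14), nor over time with MS023 (0.17).

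ATF3, a stress-induced partner of JUN at chr1:212565334-212620777 (plus strand), had 22 to 54 counts per library. Its untreated libraries were far apart, at 2.80 and 5.47 CPM. GSK591 with Dex read 7.21 and 6.12 CPM, above all libraries without Dex, and the 3 h libraries read 2.64 to 3.49 CPM. The difference for Dex beside GSK591 was 0.71 (interval 0.12 to 1.29, edgeR adjusted p = 0.19), and beside MS023 0.20 (interval -0.37 to 0.77). No ATF3 comparison passed the threshold.

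**Figure D4:**
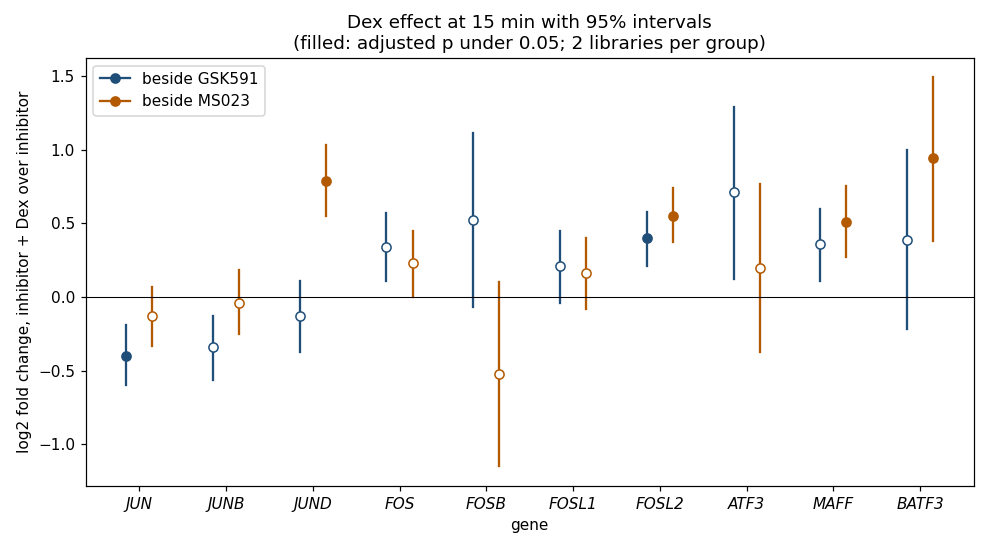
Log2 fold change when Dex was added to each inhibitor at 15 min, with 95% intervals and filled points where the edgeR adjusted p is under 0.05; 2 libraries per group. The intervals of the 2 inhibitors are apart for JUND (-0.37 to 0.11 beside GSK591 and 0.55 to 1.03 beside MS023) and overlap for the other 9 genes.

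The Dex comparisons can be read beside known glucocorticoid receptor targets. All 10 of 10 listed targets rose when Dex joined either inhibitor (3.70% of all genes called beside GSK591 and 8.97% beside MS023). Their median log2 change was 1.40 beside GSK591 and 1.52 beside MS023, against medians of -0.0043 and -0.016 over all genes. The list was chosen with earlier results of these data known, so this count is not an independent check. PER1, a clock gene induced directly by the receptor, rose by 1.89 and 1.91, and DUSP1, a phosphatase that inactivates the kinases upstream of AP-1, by 0.77 and 1.07 (edgeR adjusted p from 1e-14 to 7.1e-06). The rises of FOSL2 and of MAFF with Dex were smaller than all 4 of these values. PER1, and also IER2, CCN2 and ELK4, have exons overlapped by another annotated gene, so their counts are uncertain.

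Of 20 serum response genes, which share upstream control with FOS, 18 were tested. Beside GSK591 Dex raised 5 and lowered 7 (3.70% of all genes called), and beside MS023 it raised 4 and lowered 4 (8.97%). The largest rise beside GSK591 and MS023 was that of ZFP36, by 1.35 and 1.74, a gene also on the receptor target list. CCN2, a matrix protein gene, rose by 0.90 and 1.21. IER2, an immediate early gene, fell by 0.93 and 1.12, and ACTG1 fell by 0.97 and 0.49. EGR1 rose by 1.25 beside GSK591 (adjusted p = 0.0063), and its value beside MS023 was 0.52 (adjusted p = 0.29). The serum response genes thus changed in both directions beside either inhibitor. So did the AP-1 genes called beside GSK591 (FOSL2 higher, JUN lower), while those called beside MS023 were each higher. By DESeq2 most of all genes called beside MS023 were higher too, 754 of 1020. This depended on the scaling: with library size alone in edgeR, 533 of 1850 called genes were higher.

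Of 19 upstream factors and kinases, all of them tested, 4 rose and 1 fell with GSK591 at 3 h (11.0% of all genes called), and 5 rose with MS023 at 3 h (7.63%). SRF, which drives FOS through the serum response element, rose by 0.70 (adjusted p = 0.00095) and 0.65 (adjusted p = 0.0028), from 15.7 CPM to 25.4 and 24.7 CPM. ELK4, its partner, rose by 0.81 and 0.78, and MAPK14, the p38 kinase, by 0.68 and 0.75. Both also rose at 15 min with Dex against untreated cells, ELK4 by 0.70 beside GSK591 and 0.69 beside MS023, and MAPK14 by 0.74 and 0.90. Of the list, 3 rose in each of these comparisons with untreated cells (5.85% and 7.66% of all genes called). Adding Dex to MS023 raised 4, with ELK4 going from a mean of 8.81 to 14.7 CPM and MAPK14 from 10.8 to 22.7 CPM, against 8.97% of all genes. Adding Dex to GSK591 gave 0 calls by edgeR, with 4 of 19 at an unadjusted p under 0.05 and 0 by DESeq2. FOS itself was not called at 3 h (-0.23 with GSK591, adjusted p = 0.22, and -0.21 with MS023, adjusted p = 0.31).

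Among 10 other leucine zipper partners 7 were tested. MAFG, a small MAF gene like MAFF, fell by 0.39 and 0.34 when Dex joined GSK591 and MS023 (edgeR adjusted p = 0.013 and 0.017). Its exons overlap those of another gene on each strand, so its counts are uncertain too. MAFF and MAFG thus gave values of opposite sign with Dex.

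Of 20 genes known as AP-1 targets 14 were tested, and at 3 h 1 rose and 3 fell with either inhibitor, where 11.0% of all genes were called for GSK591 and 7.63% for MS023. Against untreated cells 1 rose and 2 fell with GSK591 and Dex (5.85% of all genes), and 2 rose and 2 fell with MS023 and Dex (7.66%). Adding Dex raised 1 and lowered 1 beside GSK591 (3.70%), and raised 3 beside MS023 (8.97%). PLAUR, the urokinase receptor, fell by 0.44 and 0.38 at 3 h of GSK591 and MS023 (edgeR adjusted p = 0.012 and 0.047). FSTL3, a follistatin-like gene, rose by 0.38 and 0.42 (edgeR adjusted p = 0.0088 and 0.0037).

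The genes whose log2 CPM followed an AP-1 gene most closely over the 14 libraries were sought among 15562 tested genes that averaged 2 CPM or more. The AP-1 genes themselves and genes without a symbol or with a clone-type name were left out of this search. The 14 libraries come from 7 shared treatments, so these correlations describe a common response pattern and carry no test. For JUN they were RPL13A (Pearson r = 0.95), MYADM (0.94) and MIR22HG (0.94). For JUND they were WHAMMP3 (0.98), RANBP9 (0.97) and WRNIP1 (0.96). FOSL2 lay closest to MT2A (0.98), KLF6 (0.97) and TSC22D3 (0.97), and of these TSC22D3 is a member of the receptor target list. For FOSL1 the closest were SULF2 (0.96), ARHGEF28 (0.95) and FHOD1 (0.94), and for BATF3 they were CHKA (0.92), TTC9 (0.91) and USP25 (0.91). Between AP-1 genes, r was 0.91 for FOSL2 with MAFF, 0.84 for FOS with FOSL2 and -0.68 for JUN with JUND.

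The authors' deposited tables compare each treatment with a control, and their values match untreated replicate 2 alone as that control. By the authors' deposited table for GSK591 at 3 h, 3 of the 10 genes had an adjusted p under 0.05: JUN (-0.91, adjusted p = 1.2e-06), JUND (0.66, adjusted p = 0.016) and FOSL1 (-0.64, adjusted p = 0.022). In the authors' deposited table for MS023 at 3 h there were 2, JUN (-0.75, adjusted p = 0.0002) and JUND (0.86, adjusted p = 0.0011). The authors' deposited tables with Dex compare inhibitor and Dex together with the control, not with the inhibitor alone. The authors' deposited table for GSK591 with Dex held 2, JUN (-0.64, adjusted p = 0.0056) and FOSL2 (0.45, adjusted p = 0.023). The authors' deposited table for MS023 with Dex held 1, FOSL2 (0.50, adjusted p = 0.0055). For either inhibitor at 15 min the authors' deposited tables held 0 of the 10. In the authors' deposited tables for 3 h and for Dex, FOSB, ATF3 and BATF3 had no adjusted p, so they could not be counted there. The share of all genes under this threshold in the authors' deposited tables was not computed, so these counts have no background beside them.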

How the data were processed

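The members and lists were chosen with earlier results of these data known. The deposited table holds read counts per gene, made with featureCounts 2.0.1 on hg38 per the submitters' processing notes. Aligner, counted feature, strand setting and duplicate handling are not given in the sources used here. The authors' 6 deposited comparison tables (DESeq2, per the submitters' processing notes) hold, per the file headers, a mean signal, a log2 fold change with its SE, a Wald score and raw and adjusted p-values for each gene. Coordinates and exon lengths are from GENCODE 29 (GRCh38), promoters from RefSeq.

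All 14 libraries entered 1 edgeR fit (4.0.16, R 4.3.3; TMM, filterByExpr, quasi-likelihood) with a coefficient per group and 7 residual degrees of freedom. P-values were Benjamini-Hochberg adjusted over all 21910 tested genes. The fit was tested on simulated counts. Depth was 5768312 to 9606938 counts; no spike-in was used here.

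Described by name were the 10 AP-1 genes and, from 5 other lists (glucocorticoid receptor targets, serum response genes, upstream factors and kinases, other leucine zipper partners, AP-1 targets; DUSP1, ZFP36 and SRF are in more than 1), SRF, EGR1, PER1, DUSP1 and up to 2 of the largest called changes in each direction, not every one of which is printed. Alternatives were DESeq2 1.42.0, library size alone, no count filter, only the groups compared, a replicate block and leaving out each library; GC trend removed and nuclear library size alone were chosen after seeing the data.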

Additional observations from a re-analysis of the deposited data

Results flagged for a closer look

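JUND is listed here because the effect of Dex on it differed between the inhibitors by a test of the difference itself. Beside MS023, JUND went from 41.2 and 59.9 CPM to 83.1 and 89.2 CPM, and beside GSK591 from 86.5 and 73.6 CPM to 78.4 and 67.6 CPM. The difference of the log2 changes, beside GSK591 minus beside MS023, was -0.92 ± 0.17 (edgeR adjusted p = 0.0018). The first MS023 library at 15 min was the lowest of all 14 for JUND, and the second lay just above the untreated pair. The first had 8904573 counts with 44.5% on mitochondrial genes, and the second had the fewest counts of the series, 5768312, with 39.8% mitochondrial. The part of these differences in the result was not tested.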

How the results depend on the processing

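Of the 30 calls on single AP-1 genes, 10 were kept in every alternative in which they could be tested: 5 of JUND, 4 of JUN and 1 of FOSL2. No result reversed. DESeq2 kept 21 and lost 8, with 1 (BATF3, GSK591 at 3 h against 15 min) given no adjusted p. Library size alone kept 18 and lost 12, nuclear library size alone 27 and 3, only the groups compared 28 and 2, no count filter 29 and 1, and GC trend removed 30 and 0. Leaving out 1 library kept 81 of 124 repeats of a call; a group left with 1 library is assumed to vary like the others.

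Counts of AP-1 genes called moved by over 1.5 times as follows, and the cause was not tested. GSK591 at 15 min went from 0 to 1 with no count filter and with only the groups compared (JUND), and MS023 at 15 min from 0 to 1 with nuclear library size (JUN). GSK591 with Dex went from 2 to 1 with library size alone and to 5 with the GC trend removed. MS023 with Dex went from 5 to 3 and Dex beside MS023 from 4 to 1 with library size alone. Dex beside GSK591 went from 2 to 0 with only the groups compared. Over time, GSK591 went from 3 to 1 with DESeq2, and MS023 from 5 to 2 with DESeq2 and to 3 with nuclear library size. GSK591 against MS023 at 15 min went from 1 to 0 with library size alone. Calls over all genes moved too, also with 1 library left out. In the same order of settings, they went from 67 to 126 and 187 for GSK591 at 15 min, and from 40 to 194 for MS023. GSK591 with Dex went from 1282 to 968 and 1165, and MS023 with Dex from 1679 to 977. Dex beside MS023 went from 1966 to 1850, and beside GSK591 from 811 to 385. Over time, GSK591 went from 1405 to 622, and MS023 from 2640 to 1426 and 2843. GSK591 against MS023 at 15 min went from 239 to 29.

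With 1 library left out, the counts were 0 to 1 for GSK591 at 15 min, 0 to 0 for MS023 at 15 min, 2 to 3 for GSK591 with Dex, 2 to 5 for MS023 with Dex, 2 to 3 for either inhibitor at 3 h, 0 to 2 for Dex beside GSK591, 2 to 4 for Dex beside MS023, 0 to 1 for the difference of the Dex effects, 1 to 2 for GSK591 and 1 to 3 for MS023 over time, 0 to 1 for GSK591 against MS023 at 15 min and 0 to 0 at 3 h.

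Replicate numbers do not pair the libraries: over 21 pairs of groups, deviations of same-numbered libraries correlated at -0.08 to 0.15. With a replicate block all 30 calls were kept, and JUNB passed the threshold for GSK591 with Dex against untreated (-0.33, edgeR adjusted p = 0.04) and for Dex beside GSK591 (-0.34, adjusted p = 0.043), so that both counts went from 2 to 3. ATF3, FOSB and BATF3, with 21 to 61 counts per library, are limited by depth.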

Other observations

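The fold changes in the authors' deposited tables correspond to 1 untreated library as the control. A DESeq2 fit over all 14 libraries that used both untreated libraries as the control differed from the authors' deposited log2 fold changes by a median of 0.079 in each of the 6 tables, over 19513 genes with a mean signal above 10. When untreated replicate 1 was set apart as a group of its own, so that replicate 2 alone was the control, 100% of those genes lay within 0.001 (log2) of the authors' deposited values in every table. With replicate 1 alone as the control the median difference was 0.16. Why the deposited tables have this control was not tested. This bears on the AP-1 genes whose untreated libraries were apart. For GSK591 at 3 h, the authors' deposited table gives -0.07 for FOS, -0.18 for FOSB and -0.95 for ATF3, where edgeR with both untreated libraries gave -0.23, -0.69 and -0.55. JUND, with 57.0 and 57.5 CPM in the untreated libraries, was 0.66 in both.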
